A study of Mus musculus with 8 samples.

Results

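The subject is the vacuolar proton pump (V-ATPase) of RAW 264.7 cells, a macrophage-like mouse line of BALB/c origin, after contact with bacteria used as probiotics. The members were 10 genes of the pump, taken as every non-control probe whose transcript accession belongs to Atp6v0a1, Atp6v0b, Atp6v0c, Atp6v0d1, Atp6v0d2, Atp6v1a, Atp6v1b2, Atp6v1c1, Atp6v1e1 or Atp6v1h. They had 14 of the 41174 distinct probes, and 9 of the 10 passed the filter on dim probes. Cells had been treated at a multiplicity of infection of 1 for 6 h with Lactobacillus acidophilus (2 arrays), Bacillus clausii (3 arrays) or Bifidobacterium bifidum (3 arrays). On each of these 8 two-colour arrays the RNA of treated cells carried Cy5 and that of time-matched untreated cells of the same line carried Cy3. A log2 ratio above 0 therefore means more transcript in treated cells. Dyes were never swapped, so a dye effect of a probe and an effect of treatment cannot be told apart. Each ratio compares bulk RNA and was normalized within its array, so it gives a transcript's level relative to the other transcripts. A change in every cell and a change in a part of the cells cannot be told apart either.

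The V-ATPase is a rotary machine that spends ATP to move protons into lysosomes, late endosomes and phagosomes. Its V1 sector faces the cytosol and hydrolyses ATP, and its V0 sector lies in the membrane and carries the protons through. In macrophages the acid it makes activates the proteases that digest engulfed bacteria, and the pump is also part of the platform from which the kinase mTORC1 senses amino acids at the lysosome.

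Many pump genes are known targets of the transcription factors Tfeb, Tfe3 and Mitf, which bind short sites around the letters CACGTG. The promoter windows of the members were therefore searched for CACGTG and for its longer form TCACGTGA, which contains it, and both read the same on either strand. RefSeq windows of assembly GRCm38.p6, 250 bases before to 50 bases after a gene's start, were given for 6 of the 10 members. CACGTG stood in the windows of 3 of these 6 genes, against 8.09% of 27025 genes with a window. TCACGTGA stood in 2 of the 6, against 1.12% of genes. Among the other pump genes with a window, each of the motifs stood in 1 of 13. The windows of the 3 genes with a match are printed with that of Atp6v1e1, which had the lowest ratios of all members in B. clausii-treated cells on slide 2 and no match. Capitals mark CACGTG or, where present, TCACGTGA.
Atp6v1a (chr16:44139210-44139509, minus strand): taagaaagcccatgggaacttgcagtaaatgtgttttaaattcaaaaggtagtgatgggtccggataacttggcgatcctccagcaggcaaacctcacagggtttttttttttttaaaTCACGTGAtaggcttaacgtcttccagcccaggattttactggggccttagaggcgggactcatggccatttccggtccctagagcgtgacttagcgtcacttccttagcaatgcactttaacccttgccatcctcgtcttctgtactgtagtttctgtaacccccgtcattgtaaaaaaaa
Atp6v0b (chr4:117887280-117887579, minus strand): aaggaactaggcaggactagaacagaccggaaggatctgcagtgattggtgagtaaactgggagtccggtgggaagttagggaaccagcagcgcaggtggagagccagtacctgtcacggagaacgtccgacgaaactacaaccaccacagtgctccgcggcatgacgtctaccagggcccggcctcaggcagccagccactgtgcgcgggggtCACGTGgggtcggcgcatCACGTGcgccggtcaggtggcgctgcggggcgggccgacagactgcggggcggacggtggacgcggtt
Atp6v0d1 (chr8:105566015-105566314, minus strand): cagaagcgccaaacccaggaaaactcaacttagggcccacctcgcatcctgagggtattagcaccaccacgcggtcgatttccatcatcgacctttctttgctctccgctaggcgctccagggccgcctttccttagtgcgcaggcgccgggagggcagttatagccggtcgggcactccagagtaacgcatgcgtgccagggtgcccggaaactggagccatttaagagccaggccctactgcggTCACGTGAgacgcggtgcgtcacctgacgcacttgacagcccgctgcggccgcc
Atp6v1e1 (chr6:120822649-120822948, minus strand): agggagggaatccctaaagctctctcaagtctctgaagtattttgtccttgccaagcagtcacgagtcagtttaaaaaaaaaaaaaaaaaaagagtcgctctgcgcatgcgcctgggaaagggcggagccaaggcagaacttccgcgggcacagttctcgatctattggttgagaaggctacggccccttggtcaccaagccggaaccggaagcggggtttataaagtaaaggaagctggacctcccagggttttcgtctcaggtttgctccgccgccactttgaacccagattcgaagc
The first letter of CACGTG lay 131 bases before the start of Atp6v1a, 3 bases before that of Atp6v0d1, and 36 and 18 bases before that of Atp6v0b. A match describes the letters of the window and no binding was measured.

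The arrays lay on 2 slides, and the slide bears on every result. Both arrays of L. acidophilus were on slide 1. For B. clausii and for B. bifidum, replicates 1 and 2 were on slide 2 and replicate 3 was on slide 1. Over all genes the log2 ratios of the B. clausii replicates on slide 2 correlated at r = 0.91 with each other, but at r = 0.01 for each with B. clausii replicate 3 on slide 1. The B. bifidum replicates gave r = 0.89 on slide 2 and r = 0.00 between slides. Slide 1 had been scanned at 2 sensitivities and had no saturated features, and slide 2 had 84 to 131 on an array, none of them a member's. B. clausii replicate 3 also stood apart: the scanner software marked its spot grid as not good, its background-subtracted signals had a median coefficient of variation of 72.5% (Cy5) and 67.4% (Cy3) among repeated spots, and 12514 probes were well above background, against 21453 to 26453 on the other 7 arrays. Of 8 macrophage markers 7 had a probe, and 6 of them were well above background in the untreated channel on all 8 arrays. None of 6 lymphocyte, 5 fibroblast and 4 epithelial markers was. The labels do not tie an array to its own culture, so the p-values rest on how far these arrays differ among themselves, and that variation may be technical alone.

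Pump transcripts were lower in B. clausii-treated cells than in untreated cells on slide 2, and less clearly so over both slides. With all 8 arrays, 2 of the 9 members fell in B. clausii-treated cells against untreated cells, Atp6v1e1 and Atp6v0b (limma with Benjamini-Hochberg adjustment at a threshold of 0.05, used for all calls). Over all genes 2.58% fell in that comparison. All 9 members had a mean log2 ratio below 0, with a median of -0.47 against -0.01 over all genes. On slide 2 alone all 9 members fell, where 30.4% of all genes did and 25.4% rose, and the median of the members was -0.67. There 8 members fell with arrays centred on their medians, where 26.7% of genes fell and 0.351% rose, and 7 with the scanner's processed signals, where 18.6% of genes fell. On slide 1 the median was -0.002 in the single B. clausii array. B. clausii and B. bifidum had 1 array each on slide 1, so their values there are given as a description, with no test.

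Among the V1 genes, Atp6v1e1, the E subunit of the peripheral stalks that hold V1 still against the rotor, had the largest difference. Its log2 ratio was -1.39 and -1.34 in B. clausii replicates 1 and 2, and -0.25 in replicate 3. Its processed signal in arbitrary scanner units was 1383, 1817 and 1803 in B. clausii-treated cells, against 3485, 4921 and 2215 in the untreated cells of the same arrays. Treated cells were the dimmer on every one of these arrays, by 2.58-fold on slide 2 (log2 -1.37 ± 0.05, SE, n = 2, adjusted p = 0.000107). With all 3 arrays the log2 ratio was -0.996 ± 0.19 (SE, n = 3, limma, adjusted p = 0.0411). On slide 1 the ratio was also below 0 with L. acidophilus (-0.16 and -0.33) and with B. bifidum (-0.62). The other probe of the gene gave -1.31 and -1.32 on slide 2 and -0.11 on slide 1.

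Atp6v1a encodes the A subunit, which binds and hydrolyses ATP. Its log2 ratio was -0.99, -1.10 and -0.00 in B. clausii replicates 1, 2 and 3. The processed signal on slide 2 was 2378 and 2948 in treated cells, against 5335 and 6318 in untreated cells, and on slide 1 it was 1154, against 1042. It fell 2.07-fold on slide 2 (log2 -1.05 ± 0.07, SE, n = 2, limma, adjusted p = 0.000247). However, the other probe of the gene gave smaller differences there, of -0.45 and -0.53, and it gave 0.34 on slide 1. That probe is the brighter when the background is not corrected, and the slide 2 value was then -0.49 ± 0.05 (SE, limma, adjusted p = 0.002).

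**Figure D1:**
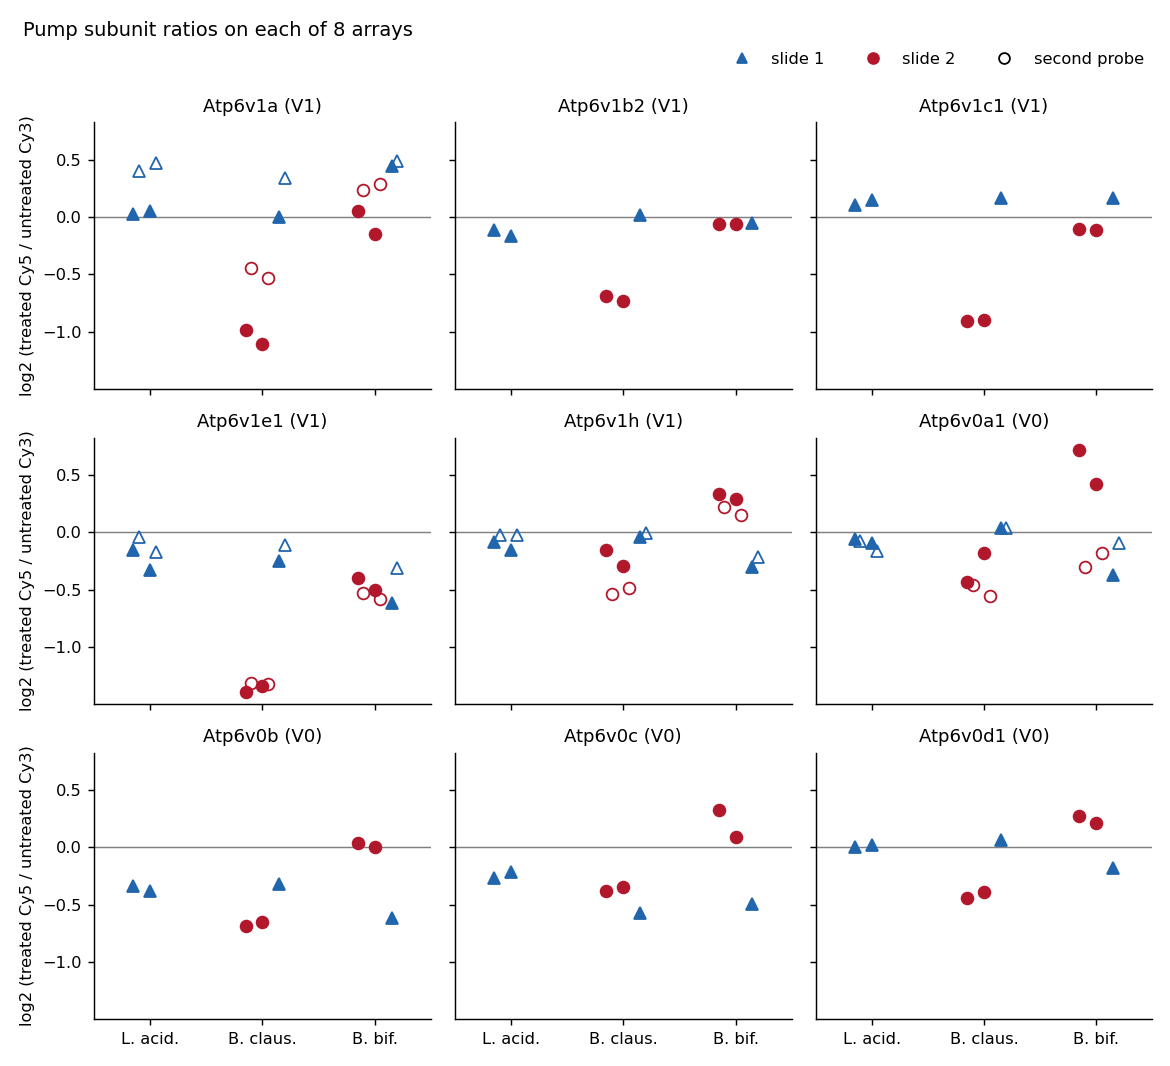
Log2 ratio of treated (Cy5) over untreated (Cy3) signal for the 9 measured members, a panel per gene, with a point per array in the order of the replicates within each strain (L. acidophilus, B. clausii, B. bifidum). Red circles are slide 2, blue triangles slide 1, and open symbols the other probe of a gene. The 2 filled red B. clausii points lie below 0 in all 9 panels and reach -1.39 for Atp6v1e1. The filled blue B. clausii triangle lies between -0.57 and 0.16, and the open one of Atp6v1a at 0.34.

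Atp6v1c1, the C subunit that clamps V1 onto V0 and leaves the pump when it comes apart, had a log2 ratio of -0.90 in both B. clausii arrays of slide 2 and of 0.16 on slide 1. Atp6v1b2, the B subunit that forms the catalytic head together with A, had -0.69 and -0.73 on slide 2 and 0.02 on slide 1. Both fell on slide 2, by 1.87-fold for Atp6v1c1 (log2 -0.90 ± 0.04, SE, n = 2, limma, adjusted p = 0.000141) and by 1.64-fold for Atp6v1b2 (log2 -0.71 ± 0.04, SE, n = 2, limma, adjusted p = 0.000219). Neither passed with all 3 arrays, at adjusted p = 0.0956 for Atp6v1c1 and 0.0656 for Atp6v1b2. Atp6v1h, the H subunit, which in yeast keeps detached V1 from wasting ATP, had the smallest mean difference on slide 2. Its log2 ratio was -0.16, -0.30 and -0.04 in B. clausii replicates 1, 2 and 3, and the slide 2 mean of -0.23 ± 0.05 (SE, n = 2, limma, adjusted p = 0.0152) passed the test. Its other probe gave -0.54 and -0.49 on slide 2.

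The 4 measured V0 genes also fell on slide 2. Atp6v0b, a proteolipid of the ring that turns in the membrane, had a log2 ratio of -0.69, -0.65 and -0.32 in B. clausii replicates 1, 2 and 3. Its processed signal was 7889, 10130.0 and 3138 in treated cells, against 13185, 15946 and 3907 in untreated cells. It was lower in B. clausii-treated cells on both slides and fell with all 3 arrays (log2 -0.55 ± 0.13, SE, n = 3, limma, adjusted p = 0.0499). On slide 1, however, Atp6v0b was further below 0 with the other strains, at -0.34 and -0.38 with L. acidophilus and -0.62 with B. bifidum. Atp6v0c, the main proteolipid of that ring, had -0.38, -0.34 and -0.57, so that it too was below 0 on both slides, with an adjusted p = 0.0802 over the 3 arrays and 0.00694 on slide 2 (limma). On slide 1 Atp6v0c was also below 0 with L. acidophilus (-0.27 and -0.22) and with B. bifidum (-0.49). Atp6v0d1, the d subunit that joins the ring to the central stalk, had -0.44 and -0.39 on slide 2 and 0.06 on slide 1. Atp6v0a1, an isoform of the large a subunit along which protons pass, had -0.44 and -0.18 on slide 2, and 0.03 on slide 1 from a spot not well above background in either channel. Both fell on slide 2, with -0.41 ± 0.04 for Atp6v0d1 (log2, SE, n = 2, limma, adjusted p = 0.00115) and -0.31 ± 0.10 for Atp6v0a1 (log2, SE, n = 2, limma, adjusted p = 0.0408). Atp6v0a1 was also among the dimmest members, with processed signals of 258 to 472 in B. clausii-treated cells and of 241 to 579.6 in untreated cells.

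Over both slides the calls changed with the arrays and the model. The median of the 5 V1 genes in B. clausii replicates 1, 2 and 3 was -0.90, -0.90 and -0.002, and that of the 4 V0 genes was -0.44, -0.36 and -0.14. With slide as a block, 6 members fell (Atp6v0b, Atp6v0c, Atp6v1a, Atp6v1b2, Atp6v1c1 and Atp6v1e1), as 14.5% of genes did, and with the replicate number as a block 6 fell, as 16.5% of genes did. Without B. clausii replicate 3, 6 members fell, as 20.3% of genes did. Without B. bifidum replicate 3, which enters this comparison only through the shared estimate of the spread, 3 fell, as 6.44% of genes did, and without any of the other 6 arrays 0 did.

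**Figure D2:**
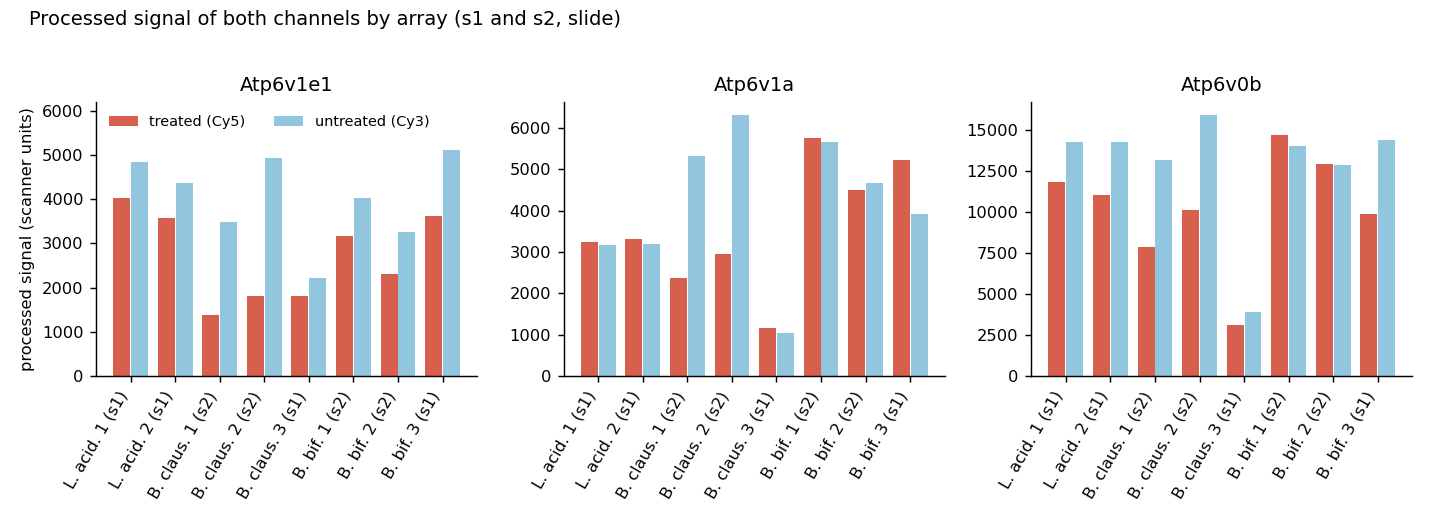
Processed signal (scanner units, linear axis from 0) of treated cells (red, Cy5) and untreated cells (light blue, Cy3) on each of the 8 arrays for Atp6v1e1, Atp6v1a and Atp6v0b, with the slide in brackets. Atp6v1e1 read 1383 and 1817 in B. clausii-treated cells on slide 2, against 3485 and 4921 in untreated cells. B. clausii replicate 3 is dim in both channels for Atp6v1a and Atp6v0b.

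In B. bifidum-treated cells the pump genes did not move one way. With all 8 arrays 0 of the 9 members passed (limma, 1 at an unadjusted p under 0.05), where 0.362% of genes rose and 1.11% fell. The median of the members was -0.02, against -0.01 over all genes. On slide 2, 3 members rose (Atp6v0a1, Atp6v1h and Atp6v0d1), where 14.8% of genes did, and 1 fell (Atp6v1e1), where 23.7% of genes did.

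Atp6v1e1 was below 0 on all 3 B. bifidum arrays, at -0.40, -0.51 and -0.62. Its processed signal was 3176, 2307 and 3608 in B. bifidum-treated cells, against 4021, 3250.2 and 5107 in untreated cells. It fell on slide 2 (log2 -0.45 ± 0.05, SE, n = 2, limma, adjusted p = 0.00172), and over both slides its value was -0.51 ± 0.19 (SE, n = 3, limma, adjusted p = 0.195). The catalytic head genes stayed near 0 on slide 2, at 0.05 and -0.15 for Atp6v1a and at -0.06 and -0.06 for Atp6v1b2, and neither passed, although Atp6v1a, then read on its other probe, rose without background correction (log2 0.30 ± 0.05, SE, limma, adjusted p = 0.0107). Atp6v1c1 had -0.11, -0.11 and 0.17 in replicates 1, 2 and 3. Atp6v1h had 0.34 and 0.29 on slide 2 but -0.30 on slide 1, so its rise on slide 2 (log2 0.31 ± 0.05, SE, n = 2, limma, adjusted p = 0.00729) had the opposite sign on the other slide.

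The V0 genes stood at or above 0 on slide 2 and below 0 on slide 1. Atp6v0b read 0.04 and 0.00 on slide 2 and -0.62 on slide 1. Atp6v0a1 had 0.72 and 0.42 on slide 2, where it rose (log2 0.57 ± 0.10, SE, n = 2, limma, adjusted p = 0.00754), and -0.37 on slide 1. Its other probe disagreed, with -0.31 and -0.18 on slide 2, so the rise of Atp6v0a1 rests on 1 of its 2 probes. Atp6v0d1 had 0.27 and 0.21 on slide 2, where it rose (log2 0.24 ± 0.04, SE, n = 2, limma, adjusted p = 0.0105), and -0.18 on slide 1. Atp6v0c had 0.32, 0.09 and -0.49 in replicates 1, 2 and 3 and did not pass on slide 2 (limma, adjusted p = 0.0605). The rises depend on the scaling: with arrays centred on their medians and no loess, all genes had a median of -0.42 on slide 2, and 0 members rose and 5 fell, where 0.0727% of genes rose and 37.3% fell.

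L. acidophilus had arrays on slide 1 alone. None of the 9 members passed (limma, 0 also at an unadjusted p under 0.05), and 0% of genes did. The fitted log2 ratios ran from -0.36 to 0.13, with a median of -0.12 against 0.01 over all genes. Atp6v0b was lowest, at -0.34 and -0.38 in replicates 1 and 2. Atp6v0c had -0.27 and -0.22, and Atp6v1e1 had -0.16 and -0.33. On the brightest probes Atp6v1c1 was highest, at 0.10 and 0.15, but the other probe of Atp6v1a gave 0.40 and 0.47. On slide 1 Atp6v0b, Atp6v0c, Atp6v1e1 and Atp6v1h were thus below 0 on all 4 arrays, whichever the strain.

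Atp6v0d2, the d isoform of osteoclasts, was close to undetected. It was well above background in the treated channel of 1 of the 8 arrays and in the untreated channel of 0, with processed signals of 9.1 to 81.5 in treated cells and 5.2 to 35.9 in untreated cells. No ratio is given for it. Of 9 osteoclast markers, 3 were well above background in untreated cells on all 8 arrays. On slide 2, 2 of the 9 rose and 6 fell in B. clausii-treated cells, where 25.4% of all genes rose and 30.4% fell.

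The comparison of B. clausii with B. bifidum can be made within slide 2, where each strain had 2 arrays. All 9 members were lower in B. clausii-treated cells than in B. bifidum-treated cells there, relative to the untreated cells of each array, and all 9 passed the test, where 14.7% of genes were lower and 15% higher. The B. clausii arrays lay below the B. bifidum arrays without overlap for all 9, as for 30.4% of genes. On the brightest probes the differences ran from that of Atp6v1a (log2 -0.998 ± 0.09, SE, n = 2 each, limma, adjusted p = 0.00211) to that of Atp6v1h (log2 -0.54 ± 0.07, SE, n = 2 each, limma, adjusted p = 0.00552). Between them lay Atp6v1e1 at -0.91, Atp6v0a1 at -0.88, Atp6v1c1 at -0.79, Atp6v0b at -0.69, Atp6v0d1 and Atp6v1b2 at -0.65, and Atp6v0c at -0.57. This order depends on the probe. With the mean of a gene's probes the differences were -0.88 for Atp6v1a, -0.62 for Atp6v1h and -0.57 for Atp6v0a1, whose other probe had B. clausii at -0.46 and -0.55 and B. bifidum at -0.31 and -0.18.

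On slide 1 the same comparison had 1 array a strain, and the differences ran from -0.44 for Atp6v1a to 0.37 for Atp6v1e1, leaving out Atp6v0a1, whose 0.41 rests on a B. clausii spot not well above background. The median of the 9 was 0.24, and 6 of them were above 0. Over both slides 0 members passed without a block (limma, 1 at an unadjusted p under 0.05, 0.0132% of genes fell) and 0 were free of overlap, against 5.15% of genes. With slide as a block 1 passed, Atp6v1a (log2 -0.81 ± 0.12, SE, limma, adjusted p = 0.0396), where 0.567% of genes fell. The difference between slides was tested only after it had been seen in these data, so the test is no independent evidence of it, and only sizes are given. Its slide 1 arm is 1 array a strain, B. clausii replicate 3 being the one with the grid marked as not good, and its spread comes from the slide 2 pairs and the L. acidophilus pair. The strain difference was lower on slide 2 than on slide 1 for all 9 members. The median of slide 2 minus slide 1 was -0.80, against 0.005 over all genes. In B. clausii alone 6 members were lower on slide 2 (22.8% of genes), and in B. bifidum 5 were higher and 2 lower (12.3% and 17.4% of genes). The call on slide 2 also depends on the normalization. With the scanner's own processed signals all 9 differences were below 0 with a median of -0.81, but adjusted p ran from 0.0508 to 0.0884 and 0 passed. With arrays centred on their medians, 0 members and 0 genes passed at a median of -0.51 (limma, adjusted p of 0.974 and above, 758 genes at an unadjusted p under 0.05).

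**Figure D3:**
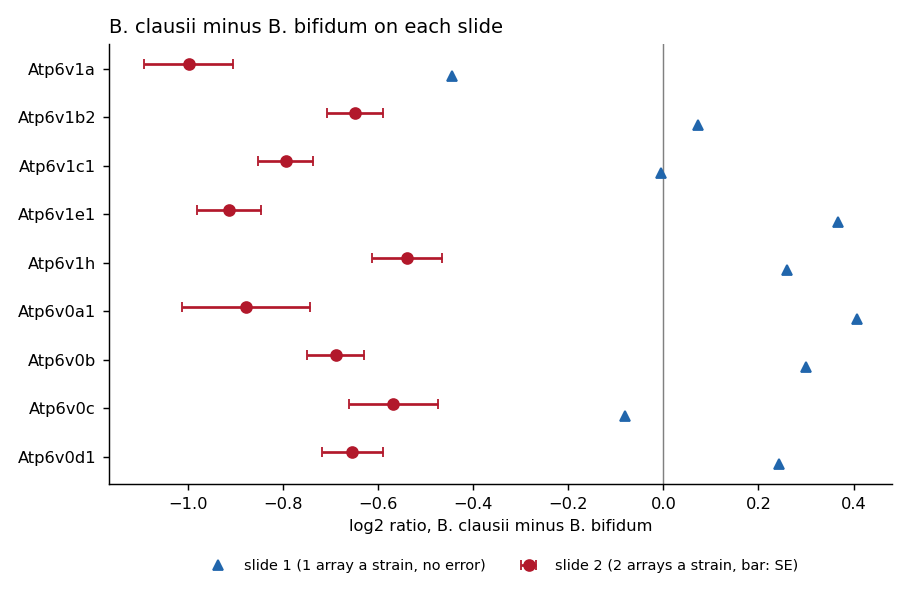
Difference in log2 ratio, B. clausii minus B. bifidum, for the 9 members. Red circles are slide 2 with bars of 1 standard error (2 arrays a strain), and blue triangles are slide 1 (1 array a strain, no error). All 9 circles lie between -0.998 and -0.54, whereas 6 of the 9 triangles lie above 0.

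Levels in the untreated channel were also compared between the slides, which were scanned differently. Set against the 75th percentile of its own array, the untreated (Cy3) level of 4 of the 9 members did not overlap between the 4 arrays of slide 2 and the 4 of slide 1, as for 40.8% of all genes. On slide 2 it was higher for Atp6v1a (log2 difference 0.68) and lower for Atp6v1c1 (-0.64), Atp6v0c (-0.62) and Atp6v1e1 (-0.45), beside a median shift of 0.19 over all genes. The mean difference of Atp6v0d1 was as large (-0.66), and its slides overlapped only through B. clausii replicate 3, at 2.27. The part of the slide in the ratios of these members was not tested further. Macrophage markers moved in the same arrays. On slide 2, 5 of the 7 measured fell in B. clausii-treated cells with a median of -0.51, where 30.4% of all genes fell. In B. bifidum-treated cells 1 rose and 2 fell with a median of 0.02, near the 14.8% and 23.7% of all genes. The part of these markers in the pump result was not tested.

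The other pump genes were called in both directions. Of 15 other subunit and accessory genes, 12 were measured, and with all arrays 2 of them fell in B. clausii-treated cells, where 2.58% of all genes did. Tcirg1, the a isoform of lysosomes and of the osteoclast border, had -0.57, -0.56 and -0.25 in B. clausii replicates 1, 2 and 3 (mean -0.46 ± 0.09, SE, n = 3, limma, adjusted p = 0.0423). Atp6v1f, the F subunit of the central stalk, had -0.74, -0.74 and -0.16 (mean -0.55 ± 0.12, SE, n = 3, limma, adjusted p = 0.0452). Both were below 0 in all 3 B. clausii arrays. With B. bifidum replicates 1, 2 and 3, Tcirg1 had 0.20, 0.10 and -0.18, and Atp6v1f had -0.25, -0.10 and -0.36. With L. acidophilus, on slide 1, Tcirg1 had -0.11 and -0.15, and Atp6v1f had 0.14 and -0.07. In B. bifidum-treated cells Atp6v1g1, a peripheral stalk subunit, had 0.37, 0.53 and 0.51 and rose (mean 0.47 ± 0.07, SE, limma, adjusted p = 0.0255), where 0.362% of all genes did. Atp6v1g1 was also above 0 with L. acidophilus, at 0.37 and 0.29. With B. clausii it had -0.04 and -0.02 on slide 2 and no value on replicate 3.

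On slide 2, 5 of the 12 fell in B. clausii-treated cells and 2 rose, beside 30.4% and 25.4% of all genes. Those with the smallest p among the falls were Atp6v0e2, an isoform of the small e subunit (log2 -0.75), Atp6v1f (-0.74), Tcirg1 (-0.57) and the accessory gene Atp6ap1 (-0.29). The accessory gene Atp6ap2, also known as the prorenin receptor, rose (0.42), as did the stalk isoform Atp6v1g2 (0.26). With B. bifidum 4 of the 12 rose and 3 fell, beside 14.8% and 23.7% of all genes. The rises included Atp6v1d, a rotor subunit of the central stalk (0.59), Atp6v1g1 (0.45), Atp6v1g2 (0.28) and Atp6ap1 (0.20), and the falls Atp6v0e2 (-0.81) and Atp6v0a2, another a isoform (-0.54). Between the strains, where 14.7% of genes were lower and 15% higher, 5 of the 12 were lower with B. clausii, namely Tcirg1 (-0.72), Atp6v1d (-0.70), Atp6v1f (-0.57), Atp6ap1 (-0.48) and Atp6v1g1 (-0.48), and 2 were higher, Atp6ap2 (0.40) and Atp6v0a2 (0.34). On slide 1, with 1 array a strain, the strain differences ran from -0.25 to 0.35 with a median of 0.05. There 4 of 11 were below 0.

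**Figure D4:**
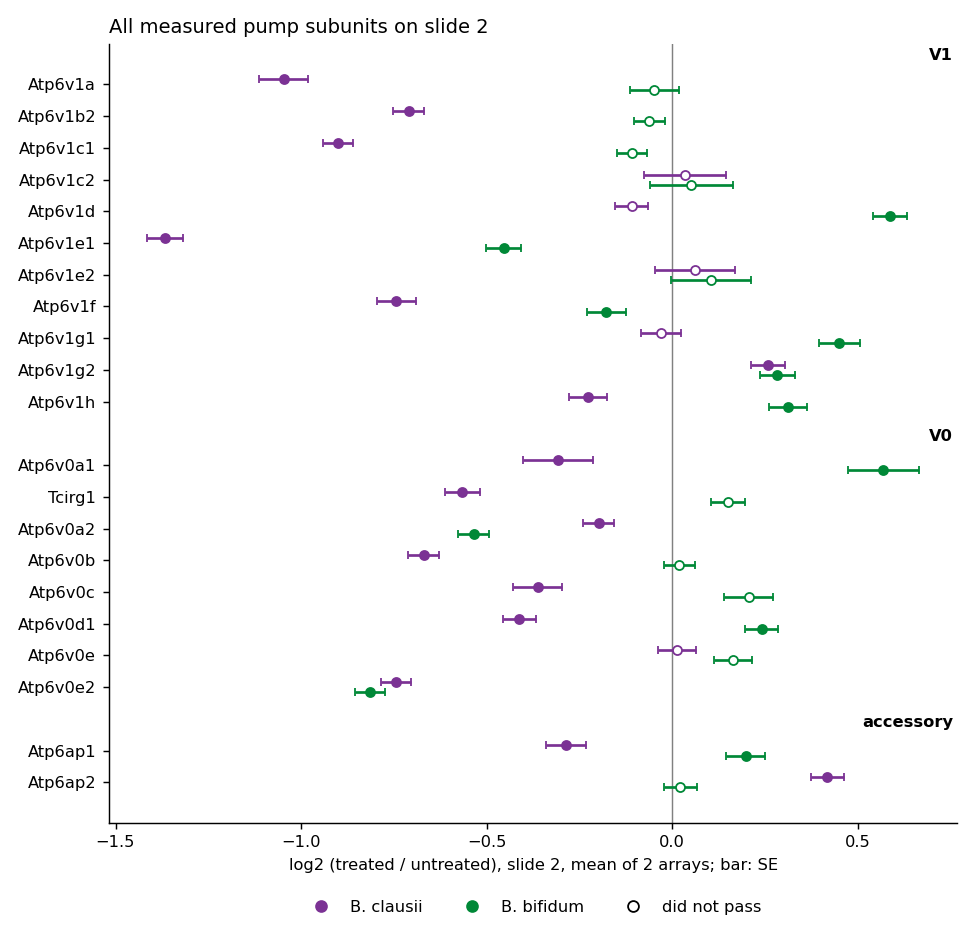
Mean log2 ratio of treated over untreated cells on slide 2 (2 arrays a strain, bars of 1 standard error) for the 9 members and the 12 other pump genes measured, grouped into V1, V0 and accessory genes. Purple is B. clausii and green B. bifidum, and open circles did not pass the test. The purple points lie left of the green ones for all 9 members, whereas Atp6v0a2, Atp6v0e2 and Atp6ap2 show the opposite order.

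Genes that build or regulate the pump gave no call with all arrays (limma, 11 of 12 measured). On slide 2, 2 of the 11 rose in B. clausii-treated cells and 3 fell, which is near the 25.4% and 30.4% of all genes and no result about the list. The rises were Vma21, a chaperone that helps V0 assemble in the endoplasmic reticulum (log2 0.90), and Tbc1d24, a TLDc-domain protein (0.24). The falls were Wdr7 (-0.65) and Dmxl2 (-0.56), parts of the rabconnectin complex that brings V1 and V0 together, and Ncoa7, another TLDc-domain protein (-0.48). In B. clausii replicate 3, on slide 1, Vma21 read -0.28, Tbc1d24 0.16, Wdr7 0.10, Dmxl2 0.22 and Ncoa7 0.13. With B. bifidum 3 rose and 1 fell, beside 14.8% and 23.7% of all genes. The rises were Tmem199 (0.23), Ccdc115 (0.20) and Wdr7 (0.19), of which Tmem199 and Ccdc115 help assemble V0, and Ncoa7 fell (-0.50). In B. bifidum replicate 3, on slide 1, Tmem199 read 0.04, Ccdc115 0.28, Wdr7 -0.02 and Ncoa7 0.33. Between the strains Wdr7 (-0.83) and Dmxl2 (-0.58) were lower with B. clausii and Vma21 (0.85) was higher, where 14.7% of all genes were lower and 15% higher. On slide 1, with 1 array a strain, the strain differences of the 11 ran from -0.20 to 0.15.

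Of 14 lysosomal partners and transcription factors, all measured, 1 fell with all arrays in B. clausii-treated cells, where 2.58% of all genes did. The gene was Mcoln1, a cation channel of the lysosome, with -0.75, -0.66 and -0.29 in replicates 1, 2 and 3 (mean -0.57 ± 0.11, SE, n = 3, limma, adjusted p = 0.0414). Mcoln1 was below 0 with the other strains too, at -0.38 and -0.47 with L. acidophilus and -0.15, -0.03 and -0.49 with B. bifidum. On slide 1 its B. clausii value was thus the nearest to 0. In B. bifidum-treated cells 1 fell, where 1.11% of all genes did. This was the transcription factor Mitf, with -1.08, -0.99 and -0.78 (mean -0.95 ± 0.08, SE, n = 3, limma, adjusted p = 0.00337). Mitf was thus below 0 on both slides with B. bifidum.

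On slide 2, 8 of the 14 fell and 1 rose with B. clausii, beside 30.4% and 25.4% of all genes. The falls included Mcoln1 (-0.70), Lamtor4 (-0.54), a part of the Ragulator that anchors mTORC1 signalling, and Ostm1 (-0.48), the partner of the chloride-proton exchanger Clcn7. With B. bifidum 4 fell, Mitf (-1.04) among them, and 7 rose, beside 23.7% and 14.8% of all genes. The rises included Flcn (0.69) and Fnip1 (0.66), which together act on the Rag GTPases of the mTORC1 platform, Clcn7 (0.54), Lamtor1 (0.50) and the transcription factor Tfe3 (0.47). In B. bifidum replicate 3, on slide 1, Flcn read -0.25, Fnip1 0.14, Clcn7 -0.24, Lamtor1 -0.04 and Tfe3 -0.27. There 12 of the 14 were below 0, with a median of -0.19. Between the strains 8 were lower with B. clausii and 1 was higher, beside 14.7% and 15% of all genes. Among the lower were Flcn (-1.10), Fnip1 (-0.92), Ostm1 (-0.76), Mcoln1 (-0.61) and Clcn7 (-0.53), and the higher was Mitf (0.80). On slide 1, with 1 array a strain, 2 of 13 strain differences were below 0, with a median of 0.17. With arrays centred on their medians no gene of these 3 lists rose on slide 2 in any of the comparisons and 0 passed between the strains (limma). In the order in which the lists are described, 5, 3 and 8 genes fell with B. clausii, where 26.7% of all genes did. With B. bifidum 6, 2 and 6 fell, where 37.3% of all genes did.

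The genes whose ratios over all 8 arrays were nearest to those of Atp6v1a, the member with the widest range on the brightest probes, were Metrnl, Capn5, Klc4, Tor4a and Oga. They were chosen among 14809 genes by the mean absolute difference of the log2 ratio, which was 0.086 for Metrnl and 0.104 for Oga. Metrnl had -0.96, -1.0 and 0.08 in B. clausii replicates 1, 2 and 3, and 0.03, -0.03 and 0.24 in those of B. bifidum. The choice rests on 1 probe of Atp6v1a, with a range of 1.55. The other probe had a range of 1.01 and read -0.45, -0.53 and 0.34 in B. clausii replicates 1, 2 and 3.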

How the data were processed

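RNA of treated (Cy5) and untreated (Cy3) RAW 264.7 cells was measured on 8 two-colour Agilent arrays, grouped by strain from the labels. The deposited scanner files hold the intensity of each spot and its background, and a log10 ratio, per the file headers from Feature Extraction 10.7.3.1 (10.5.1.1 per the submitters' processing notes). The authors' deposited value table held that log10 ratio to within 0.005, with a median of 0 on each array, so its scale and direction are known. The processed signals quoted are the deposited processed intensity, background-subtracted and dye-normalized per the file headers. The number of arrays limits the precision.

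Median spot intensity was corrected with normexp (offset 50) and loess within each array in limma 3.58.1 (R 4.3.3). Control spots had weight 0, and spots marked as outliers or saturated were left out. A probe was kept (28566 were) if 2 or more arrays showed it well above background in either channel. Probes were named by transcript accession through RefSeq (29169 of 43379 probe features), and the brightest probe stood for each of 15182 genes. The fit gave a mean per strain over 8 arrays, with Benjamini-Hochberg adjustment over all genes. The script was tested on simulated data. Genes named beyond the 10 members were those past the threshold, at most 6 per list and comparison, and the 5 genes nearest to the member with the widest range. Members and lists were chosen with earlier results of these data known.

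Same-numbered B. clausii and B. bifidum arrays deviated together from their strain means (r = 0.41, 0.30 and 0.46 for numbers 1, 2 and 3), but they also share a slide, and differently numbered arrays of slide 2 gave r = 0.37 and 0.25. L. acidophilus arrays did not follow the numbers (r = -0.09 to -0.06). Alternatives covered background, normalization, filter, probe choice, spread model, slide and replicate blocks, each slide alone and each array left out. The design text gives 3 replicates a strain, and 2 for L. acidophilus were analysed here. Promoter coordinates are those of GRCm38.p6 in RefSeq's table. The array files name mm9, and no array coordinate was used.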

Additional observations from a re-analysis of the deposited data

Results flagged for a closer look

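The 9 measured members differed between B. clausii and B. bifidum on slide 2 by limma's test of the strain difference. The log2 differences, B. clausii minus B. bifidum, were -0.91 for Atp6v1e1, -0.998 for Atp6v1a, -0.79 for Atp6v1c1, -0.65 for Atp6v1b2, -0.54 for Atp6v1h, -0.88 for Atp6v0a1, -0.69 for Atp6v0b, -0.57 for Atp6v0c and -0.65 for Atp6v0d1. On slide 1 the median difference was 0.24.

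Of 9 members whose untreated level was looked at over all 8 arrays for an array far from the others, 1 stood out. The untreated level of Atp6v1h was 4.06 (log2 over the 75th percentile of the array) on B. clausii replicate 3, the array whose spot grid was marked as not good. Chance marks about 1 such group in 20. Atp6v0d1, which was not marked, read 2.27 on the same array, against 2.92 to 4.33 on the others.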

How the results depend on the processing

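Across all alternatives, the count of members called stayed within 1.5 times in 83 cases and did not in 35, and single members' log2 ratios kept direction and side of the threshold in 692 cases, passed it only under the alternative in 63, lost it in 27 and moved by more than the replicate spread in 33. No member called over all arrays changed sign. For B. clausii against untreated cells, where 2 members passed, 0 did without background correction, with the scanner's processed signals, with the deposited table, with median centring and with an intensity trend, and 1 did with quantile scaling of average intensity, with no filter and with the mean of a gene's probes. Slide as a block gave 6, the replicate block 6, slide 1 alone 0 (1 array, with the spread of the L. acidophilus pair), slide 2 alone 9, and leaving out single arrays 0 to 6. Its median was -0.94 with median centring and -0.0020 on slide 1. For B. bifidum 4 passed on slide 2, and leaving out single arrays gave 0 to 2, with a median of -0.59 with median centring and -0.30 on slide 1. For B. clausii against B. bifidum 1 passed with slide as a block, 9 on slide 2 and 0 to 5 without single arrays, and the median on slide 1 was 0.24. The median for L. acidophilus was 0.14 with median centring and -0.21 with slide as a block. The replicate block changed no other call count.

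Alternatives chosen after seeing the data gave the following. Slide as a block without B. clausii replicate 3 gave 1 member for L. acidophilus (median -0.012), 9 for B. clausii, 3 for B. bifidum and 9 between these strains. Within slide 2, members that fell with B. bifidum numbered 0 with processed signals, 5 with median centring and 2 with a strict filter. Members lower with B. clausii than with B. bifidum there numbered 0 with processed signals, with the deposited table and with median centring. With median centring the members' median of slide 2 minus slide 1 was -1.03 for B. clausii, -0.26 for B. bifidum and -0.72 for their difference. For B. bifidum it was 0.46 with processed signals and with the deposited table. For B. bifidum against untreated cells on slide 2, median centring turned the sign of Atp6v0b (-0.91), Atp6v0d1 (-0.60) and Atp6v1h (-0.58), and omitting background correction that of Atp6v1a (0.30). Median centring also turned the slide 2 minus slide 1 differences of Atp6v0b (-0.12), Atp6v0d1 (-0.26) and Atp6v1h (-0.029) with B. bifidum. Median centring moved the median of all genes for L. acidophilus to 0.14, with B. clausii at -0.22 and B. bifidum at -0.35. The cause of these changes was not tested. Atp6v0d2 was too near background to measure.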
